A study of Mus musculus with 6 samples.

Results

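Isl1, Mef2c, Hand1, Hand2 and Ldb1 are 5 genes that regulate the second heart field, and they were found by symbol, 1 row each, among the 30631 genes listed for every library. The second heart field is a pool of cardiac progenitors that feeds cells into both poles of the growing heart tube. The LIM homeodomain factor Isl1 marks these progenitors and stays on in the sinoatrial node, the heart's pacemaker. Ldb1 is the adaptor that binds LIM domains and joins such factors into larger complexes on DNA. Mef2c, a MADS-box factor, is known in mouse as a target of Isl1 in the field and as an activator of muscle genes. Hand1 and Hand2 are basic helix-loop-helix factors that pair with E proteins, and mouse hearts need both.

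The samples were mouse embryonic stem cell clones differentiated in hanging drops and sorted at stage 7+1 days for the surface protein CD166, a way of enriching sinoatrial node-like cardiomyocytes. RNA was sequenced from 3 samples with genotype label Shox2-/- (here "labelled knockout") and 3 with genotype label Wildtype (here "labelled wild type"). Shox2 is a homeodomain factor of pacemaker development, and the design asks what its loss changes. All 3 titles labelled knockout share a single clone-like prefix, whereas each title labelled wild type has its own, so genotype and clone cannot be told apart. The sources used here do not say how the allele was engineered. Titles also carry a Diff number of unstated meaning, which is 7, 8 and 9 in libraries 1, 2 and 3 labelled knockout and 9 in libraries 1 and 2 labelled wild type, with another number in library 3. The labels do not say which samples came from separate cultures, and the clone-like prefixes differ only among titles labelled wild type. Each p-value therefore reflects sample-to-sample spread alone, part of which may be technical.

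The values are read counts scaled by the authors with 1 factor per library, and between 13504683 and 34650564 reads stood behind each library. Shox2 itself went against its label: 201, 548 and 373 normalized counts were found under the knockout label and 89.6, 83.4 and 31.4 under the wild type label. Every direction given here is therefore between labels. Libraries 1 and 2 labelled wild type were the most alike of the 15 pairs (Pearson r = 0.993 of log2 values over 17034 genes), and every other library had its lowest r with library 3 labelled wild type. CD166 is encoded by Alcam, which was present in all 6 libraries at 4176 or more. Over all genes, limma on log2(value + 1) called 0% of 17034 genes at an adjusted p under 0.05. At an unadjusted p under 0.05 it had 14.2% of genes, of which 6.92% of all genes were higher under the knockout label and 7.23% lower. Groups were fully separated in 23.6% of genes, with the knockout label above in 12.8% and below in 10.8%.

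All 5 members passed the filter on low values, and 0 of 5 passed the adjusted threshold. Isl1 and Mef2c, 2 of the 5, were higher in every library labelled knockout and had an unadjusted p under 0.05. Over all genes the shares were 12.8% for that separation, 23.6% for separation in either direction and 6.92% for that p. Hand1 and Hand2 differed mainly between library 3 labelled wild type and the other 5 libraries. Ldb1 was nearly level. The median log2 difference was 0.51 over the 5 members and 0.0135 over all tested genes. Without library 3 labelled wild type the members' median was 0.05, and under limma voom with sample quality weights it was 0.07.

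**Figure D1:**
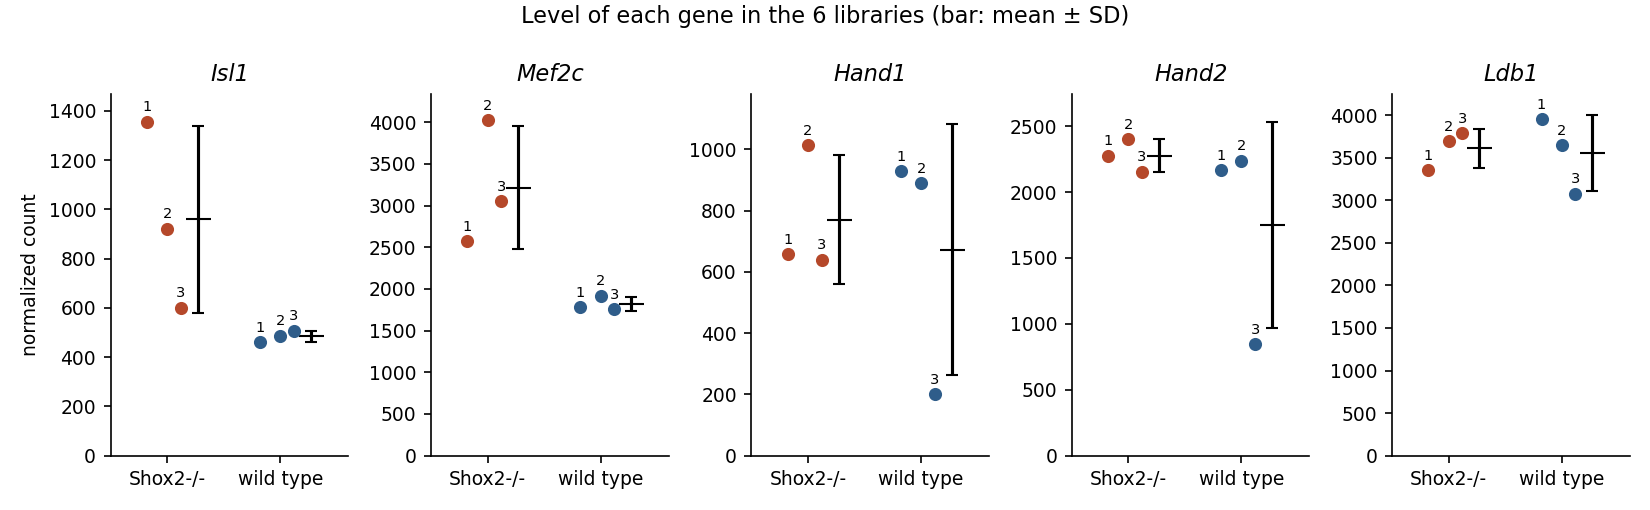
Normalized count (y axis, linear, from 0) of each member in the 3 libraries labelled Shox2-/- (left, red) and the 3 labelled wild type (right, blue), with library numbers beside the points and the mean ± SD as a bar. Isl1 and Mef2c do not overlap between groups, and for Hand1 and Hand2 library 3 labelled wild type, at 201 and 847, is the lowest point.

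Isl1 (ENSMUSG00000042258) lies on the minus strand of chromosome 13 in mm10, from 116298281 to 116309689. It had 1356, 922 and 601 normalized counts in libraries 1, 2 and 3 labelled knockout, against 461, 487 and 507 in libraries 1, 2 and 3 labelled wild type. The groups did not overlap, but library 3 labelled knockout, which shares Diff number 9 with libraries 1 and 2 labelled wild type, lay nearest to them. The part of the Diff number in the Isl1 result was not tested beyond a block for 9, with which the log2 difference was 0.74 (adjusted p = 0.293 in limma). The means were 959.8 ± 379 (SD, n = 3) in libraries labelled knockout and 485 ± 22.9 (SD, n = 3) in those labelled wild type, a ratio of 1.98. The log2 difference was 0.91 (SE 0.27, 95% interval 0.27 to 1.54; unadjusted p = 0.0117, adjusted p = 0.265 in limma), and 1.21% of tested genes had a difference at least as high. Leaving out library 1 labelled knockout gave 0.62 and leaving out library 3 of that label gave 1.20, and the difference was positive in all 15 alternatives run, each with an unadjusted p under 0.05. The coefficient of variation was 39.5% in libraries labelled knockout and 4.73% in those labelled wild type. These counts came from 278 to 1032 reads per library.

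The window around the Isl1 start is shown because Isl1 had the highest difference of the 5 members and because Shox2 and Isl1 are both homeodomain factors. It spans 250 bases before to 50 after the start (RefSeq, GRCm38.p6, chr13:116309639-116309938, minus strand, 5′ to 3′), and capitals mark TAAT, the core letters that many homeodomain factors bind, on either strand.
Isl1 window: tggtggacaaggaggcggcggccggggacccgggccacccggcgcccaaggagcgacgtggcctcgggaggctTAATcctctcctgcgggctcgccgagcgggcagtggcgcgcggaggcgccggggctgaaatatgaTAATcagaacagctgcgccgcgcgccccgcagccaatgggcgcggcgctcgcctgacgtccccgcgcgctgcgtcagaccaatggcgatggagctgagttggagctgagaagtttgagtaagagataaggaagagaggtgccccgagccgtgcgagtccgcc
It holds 2 matches to TAAT, 1 to CANNTG and 2 to GATAA. The second is the E-box, read by basic helix-loop-helix pairs, and the third the core of GATA factor sites. Over all 32851 such windows of the mouse table, 58% hold TAAT, 72.3% an E-box and 25.4% GATAA, counted on both strands with overlaps allowed. A match is a run of letters and not a binding site.

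Isl1 stands in a gene-poor stretch, and its nearest protein-coding neighbours are Itga1 at 1196 kb and Parp8 at 545 kb. Itga1, an integrin subunit of collagen receptors, had 3147, 2292 and 2477 normalized counts in libraries labelled knockout and 1157, 1154 and 1003 in those labelled wild type. Like Isl1 it was highest in library 1 labelled knockout, and its groups did not overlap. Its log2 difference was 1.25 (SE 0.14, adjusted p = 0.0954 in limma). Without library 2 labelled knockout it passed at an adjusted p of 0.0413 in limma, as 1 of 51 genes among 17034. Over the 15 alternatives, in limma or limma voom, its adjusted p ran from 0.00642 to 0.514. Parp8, a member of the poly(ADP-ribose) polymerase family, averaged 419 ± 80.9 (SD, n = 3) in libraries labelled knockout and 499 ± 115 (SD, n = 3) in those labelled wild type.

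Isl1 also marks motor and sensory neurons, so neuronal markers were read beside it. Of 13 such markers, 8 stayed under the filter, among them Mnx1, Chat and Neurog2, with no value above 30.6 in any library. The summed level of the list was 434, 389.7 and 314 in libraries 1, 2 and 3 labelled knockout, and 417, 386 and 1766 in libraries 1, 2 and 3 labelled wild type. The sum was thus highest in library 3 labelled wild type, where Isl1 was at 507. Isl2, the neuronal paralog of Isl1, was near the bottom of the range, at 15.6, 6.26 and 16.3 in libraries labelled knockout and 14.9, 13.0 and 14.9 in those labelled wild type. No run of 50 bases is shared between Isl1 and Isl2 transcripts in the GENCODE M21 annotation.

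Ldb1 (ENSMUSG00000025223) lies on the minus strand of chromosome 19, from 46031570 to 46045214. It had 3351, 3693 and 3786 normalized counts in libraries labelled knockout and 3953, 3649 and 3075 in those labelled wild type. All 3 libraries labelled knockout lay inside the wild type range. The means were 3610.0 ± 229 (SD, n = 3) in libraries labelled knockout and 3559 ± 446 (SD, n = 3) in those labelled wild type. The log2 difference was 0.03 (SE 0.12, adjusted p = 0.933 in limma), with a 95% interval of -0.26 to 0.31 that reflects sample-to-sample spread alone. Its sign changed under scaling by upper quartiles or library totals. Pprc1, a coactivator gene on the opposite strand that shares 177 exonic bases with Ldb1, had a log2 difference of 0.01 (SE 0.16), which also changed sign under both scalings. No source says that strand was used in counting, so reads in the shared bases cannot be assigned to either gene.

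Isl1 was therefore measured against its adaptor within each library. Per kilobase of exon, the linear ratio of Isl1 to Ldb1 was 0.471, 0.291 and 0.185 in libraries 1, 2 and 3 labelled knockout and 0.136, 0.155 and 0.192 in libraries 1, 2 and 3 labelled wild type. Library 3 labelled knockout lay inside the wild type range. The mean log2 ratio was -1.77 ± 0.67 (SD, n = 3) in libraries labelled knockout and -2.65 ± 0.25 (SD, n = 3) in those labelled wild type, a difference of 0.88 (exact permutation test, two-sided, p = 0.2). It was 0.54 with library 1 labelled knockout left out and 1.21 with library 3 of that label left out. With 3 libraries against 3 the smallest p possible is 0.1.

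Of 21 genes in the LIM complex list, 16 were tested, 7 with higher and 9 with lower values in libraries labelled knockout, and the list median was -0.09. In limma 0 passed the adjusted threshold. At an unadjusted p under 0.05, 3 were lower and 0 higher, beside the 7.23% and 6.92% over all genes. Ldb2, the paralog of Ldb1, had 51.9, 119 and 62.2 normalized counts in libraries labelled knockout and 221, 211 and 243 in those labelled wild type. Its groups did not overlap. The log2 difference of Ldb2 was -1.61 (SE 0.31, adjusted p = 0.191 in limma). Without library 2 labelled knockout Ldb2 passed at an adjusted p of 0.0399 in limma, where 51 of 17034 genes passed. It also passed under limma voom at 0.0248, where 303 genes did. With libraries 1 and 2 labelled wild type averaged, its adjusted p was 0.505 in limma. The other 2 were LIM homeodomain genes at low level, Lmx1a (log2 difference -1.10, SE 0.45) and Lhx6 (-0.70, SE 0.29). Their unadjusted p stayed under 0.05 in 9 of 14 alternatives for Lmx1a and 5 of 14 for Lhx6, and without library 3 labelled wild type Lmx1a was at -0.73. Lmx1a averaged 13.8 ± 5.88 (SD, n = 3) in libraries labelled knockout and 31.4 ± 15.7 (SD, n = 3) in those labelled wild type.

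Mef2c (ENSMUSG00000005583) lies on the plus strand of chromosome 13, from 83504034 to 83667080. It had 2571, 4022 and 3054 normalized counts in libraries 1, 2 and 3 labelled knockout and 1783, 1916 and 1756 in those labelled wild type. The lowest library labelled knockout was well above the highest labelled wild type. The means were 3216 ± 739 (SD, n = 3) in libraries labelled knockout and 1818 ± 85.7 (SD, n = 3) in those labelled wild type, a ratio of 1.77. The log2 difference was 0.80 (SE 0.16, 95% interval 0.41 to 1.18; unadjusted p = 0.00164, adjusted p = 0.201 in limma), and by p it was gene 138 of 17034. Under limma voom with sample quality weights the difference of 0.76 passed, at an adjusted p of 0.0294, as did 303 of 17034 genes. These weights were 3.59 and 4.22 for libraries 1 and 2 labelled wild type and 0.206 for library 3. Mef2c passed in no other alternative. With libraries 1 and 2 labelled wild type averaged, its adjusted p was 0.505 in limma. The difference lay between 0.62 and 0.95 in the 15 alternatives.

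Isl1 and Mef2c thus differed by similar amounts, but their order among the libraries labelled knockout was not the same. Isl1 was highest in library 1 labelled knockout, which was the lowest of its group for Mef2c. Mef2c was highest in library 2 labelled knockout. By correlation over the 6 libraries, the genes most like Isl1 were Orc1 (r = 0.998), Lin54 (r = 0.996) and Ado (r = 0.995), and those most like Mef2c were Antxr2 (r = 0.993), Psmb1 (r = 0.993) and Cdk13 (r = 0.992). Among 11854 genes with a mean of at least 100, r was above 0.9 for 615 genes with Isl1 and 177 with Mef2c, so with 6 libraries such values are common. For Hand1 the genes most alike included Fat4 (r = 0.997) and Ep300 (r = 0.993), for Hand2 they were Itga5 (r = 0.995), Klc2 (r = 0.994) and Acads (r = 0.993), and for Ldb1 they were Gm16379 (r = 0.991), Pfdn5 (r = 0.985) and Aldoart2 (r = 0.985). All are descriptions.

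Mef2c is also expressed in endothelial and myeloid cells, whose markers varied widely. The summed level of 8 leukocyte markers was 230.1, 4527 and 395 in libraries 1, 2 and 3 labelled knockout and 856, 780.1 and 2186 in libraries 1, 2 and 3 labelled wild type. Library 2 labelled knockout, the highest for Mef2c, was also the highest for these markers. Without it the log2 difference of Mef2c was 0.62 (SE 0.12; unadjusted p = 0.00191, adjusted p = 0.14 in limma). Library 3 labelled wild type was second for leukocyte markers and the lowest for Mef2c. The summed level of 10 endothelial markers was between 8602 and 13195 in libraries labelled knockout and between 3954 and 15209.8 in those labelled wild type, so the ranges overlapped. In bulk samples, more cells of a type and more RNA per cell cannot be told apart. The part of these cell types in the Mef2c result was not tested.

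The tested MEF2 paralogs overlapped between groups. Mef2a averaged 2342 ± 212 (SD, n = 3) in libraries labelled knockout and 2429.8 ± 169 (SD, n = 3) in those labelled wild type. Mef2d averaged 572 ± 32.1 (SD, n = 3) in libraries labelled knockout and 586 ± 128 (SD, n = 3) in those labelled wild type. Mef2b was at 0, 0 and 0 in libraries labelled knockout and at 0, 0.65 and 0.79 in those labelled wild type. No run of 50 bases is shared between Mef2c and Mef2a, Mef2b or Mef2d transcripts. Of 16 tested genes in the MEF2 list of family members, class II histone deacetylases, kinases and targets, 10 were higher and 6 lower, with a median of 0.09. In limma 0 passed the adjusted threshold, and at an unadjusted p under 0.05, 2 were higher and 1 lower, 18.8% of those tested and near the 14.2% of all genes. Hdac9, a deacetylase that binds and represses MEF2 factors, had 183, 307 and 258 normalized counts in libraries labelled knockout and 68.0, 69.1 and 186 in those labelled wild type (log2 difference 1.34, SE 0.42). Its groups overlapped only through library 3 labelled wild type. Hdac9 passed under limma voom at an adjusted p of 0.0108, where 303 genes did. With libraries 1 and 2 labelled wild type averaged, its adjusted p was 0.527 in limma. Mapk14, a p38 kinase that phosphorylates MEF2 proteins, had a log2 difference of 0.31 (SE 0.12), and Myom2, an M-band gene, one of -0.79 (SE 0.33) at values of 15.7 or less. Their unadjusted p stayed under 0.05 in 6 of 15 alternatives for Mapk14 and 5 of 14 for Myom2. Smyd1, a muscle methyltransferase gene known as a direct Mef2c target and chosen after its values were seen, had 429, 558 and 776 in libraries labelled knockout and 455, 501 and 148 in those labelled wild type.

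Mef2c has 31 annotated transcripts, and 3 start windows are in the RefSeq table. They are shown because gene-level counts do not say which start was used. All 3 are on the plus strand of GRCm38.p6, 5′ to 3′, with TAAT on either strand in capitals.
Mef2c window 1 (chr13:83503784-83504083): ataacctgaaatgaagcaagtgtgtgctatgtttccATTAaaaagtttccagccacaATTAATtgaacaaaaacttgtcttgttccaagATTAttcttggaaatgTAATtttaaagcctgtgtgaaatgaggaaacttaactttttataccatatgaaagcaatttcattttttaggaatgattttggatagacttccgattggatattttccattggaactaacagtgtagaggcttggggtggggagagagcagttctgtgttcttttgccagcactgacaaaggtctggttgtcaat
Mef2c window 2 (chr13:83523406-83523705): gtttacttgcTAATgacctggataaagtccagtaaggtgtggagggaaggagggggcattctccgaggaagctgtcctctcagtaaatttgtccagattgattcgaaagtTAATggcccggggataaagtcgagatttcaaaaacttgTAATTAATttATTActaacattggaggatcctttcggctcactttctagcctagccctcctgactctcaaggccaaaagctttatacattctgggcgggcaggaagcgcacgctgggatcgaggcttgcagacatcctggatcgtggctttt
Mef2c window 3 (chr13:83573357-83573656): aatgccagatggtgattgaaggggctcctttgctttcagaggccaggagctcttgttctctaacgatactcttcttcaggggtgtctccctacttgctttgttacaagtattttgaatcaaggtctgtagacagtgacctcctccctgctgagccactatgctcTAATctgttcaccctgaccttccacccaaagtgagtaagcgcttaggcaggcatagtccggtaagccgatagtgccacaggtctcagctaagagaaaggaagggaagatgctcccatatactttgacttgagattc
They hold 5, 6 and 1 matches to TAAT and 2, 0 and 1 E-boxes, at a GC content of 35.7%, 47% and 48.3%, against 69% in the Isl1 window. The MEF2 element was in none of the printed windows and in 1.86% of all such windows.

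**Figure D2:**
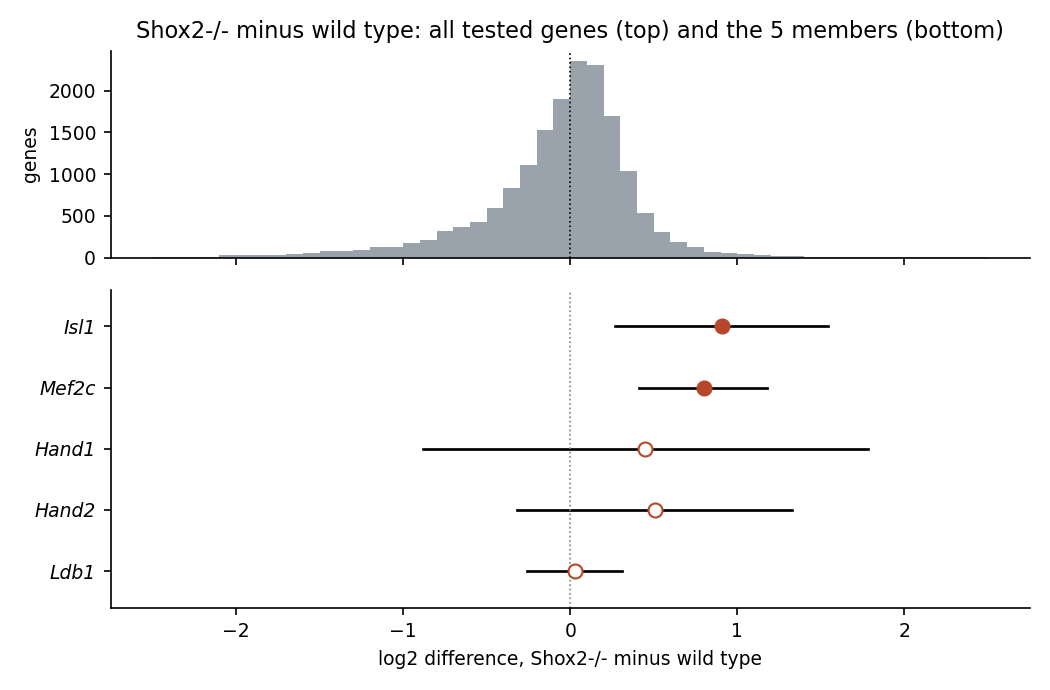
Log2 difference of labelled Shox2-/- minus labelled wild type (x axis) for all 17034 tested genes as a histogram (top, 42 genes beyond 2.5 in either direction not drawn) and for the 5 members with 95% intervals from limma (bottom). Filled points are members whose groups do not overlap, Isl1 at 0.91 and Mef2c at 0.80.

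Hand1 (ENSMUSG00000037335) lies on the minus strand of chromosome 11, from 57828705 to 57832818. It had 657, 1014 and 640.0 normalized counts in libraries 1, 2 and 3 labelled knockout and 928, 889.6 and 201 in libraries 1, 2 and 3 labelled wild type. Libraries 1 and 2 labelled wild type lay among the highest values, and library 3 was far below all others. The means were 770.3 ± 211 (SD, n = 3) in libraries labelled knockout and 673 ± 409 (SD, n = 3) in those labelled wild type. The log2 difference was 0.45 (SE 0.57, 95% interval -0.88 to 1.78; adjusted p = 0.743 in limma). Without library 3 labelled wild type it was -0.27 (SE 0.21), so the sign rested on that library.

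Hand2 (ENSMUSG00000038193) lies on the plus strand of chromosome 8, from 57320983 to 57324633. It had 2275, 2401 and 2155 normalized counts in libraries labelled knockout and 2164, 2238 and 847 in those labelled wild type. Apart from library 3 labelled wild type, 5 libraries lay between 2155 and 2401. The means were 2277 ± 123 (SD, n = 3) in libraries labelled knockout and 1749.8 ± 783 (SD, n = 3) in those labelled wild type. The log2 difference was 0.51 (SE 0.35, 95% interval -0.32 to 1.33; adjusted p = 0.528 in limma), and 0.05 (SE 0.09) without library 3 labelled wild type.

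Hand1 and Hand2 were thus low together in a single library. Per kilobase of exon, the linear ratio of Hand1 to Hand2 was 0.34, 0.497 and 0.35 in libraries 1, 2 and 3 labelled knockout and 0.505, 0.468 and 0.279 in libraries 1, 2 and 3 labelled wild type. Library 3 labelled wild type had the lowest ratio, so Hand1 was further below its other values there than Hand2. The mean log2 ratio was -1.36 ± 0.30 (SD, n = 3) in libraries labelled knockout and -1.30 ± 0.46 (SD, n = 3) in those labelled wild type, a difference of -0.05 (exact permutation test, two-sided, p = 0.9). No run of 50 bases is shared between Hand1 and Hand2 transcripts.

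Summed heart muscle and endothelial markers were lowest in the same library, but not every marker was. The summed level of 12 cardiomyocyte markers was 14965, 27890.4 and 39074 in libraries 1, 2 and 3 labelled knockout and 32659, 31056 and 11745 in libraries 1, 2 and 3 labelled wild type. Library 1 labelled knockout was close to library 3 labelled wild type by this sum. Hand1 and Hand2 were at 657 and 2275 in library 1 labelled knockout and at 201 and 847 in library 3 labelled wild type. Of the 12 single markers, 7 were lowest in library 1 labelled knockout, among them Tnnt2, Myh6 and Ryr2, and 5 in library 3 labelled wild type, among them Ttn and Tnni1. Ttn and Tnni1 made up most of each cardiomyocyte sum. They were at 2982 and 3347 in library 3 labelled wild type and at 4509 and 5285 in library 1 labelled knockout. The sum of 9 fibroblast and feeder markers was 176402, 233689 and 278764 in libraries 1, 2 and 3 labelled knockout and 378046, 373245 and 596094 in libraries 1, 2 and 3 labelled wild type. Endothelial markers summed to 3954 in library 3 labelled wild type and to at least 8602 elsewhere. Kdr made up most of these sums, at 2518 in library 3 labelled wild type and 6886 in library 1 labelled knockout. Pecam1, at 228 and 232, and Esam, at 13.3 and 13.8, were nearly level between these libraries. Egfl7, at 341 and 505, and Erg, at 47.9 and 96.9, were lower in library 3 labelled wild type. Of the 10 single endothelial markers, 7 were lowest in library 3 labelled wild type, among them Kdr, and 3 in library 1 labelled knockout. Hand1 and Hand2 are known from trophoblast and from sympathetic neurons as well. Of 11 markers of sympathetic neurons and neural crest, 7 stayed under the filter, with no value above 65.2. Trophoblast markers summed to between 1183 and 1567 in libraries labelled knockout and between 879 and 1026 in those labelled wild type, with Gcm1, Elf5 and Tpbpa under the filter. Of those tested, Cdx2 and Plac1 were lowest in library 3 labelled wild type, at 62.8 and 106. Ascl2, Tfap2c, Eomes and Krt7 were lowest elsewhere, and Krt7 was highest in that library, at 433. The part of these cell types in the Hand1 and Hand2 values was not tested.

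**Figure D3:**
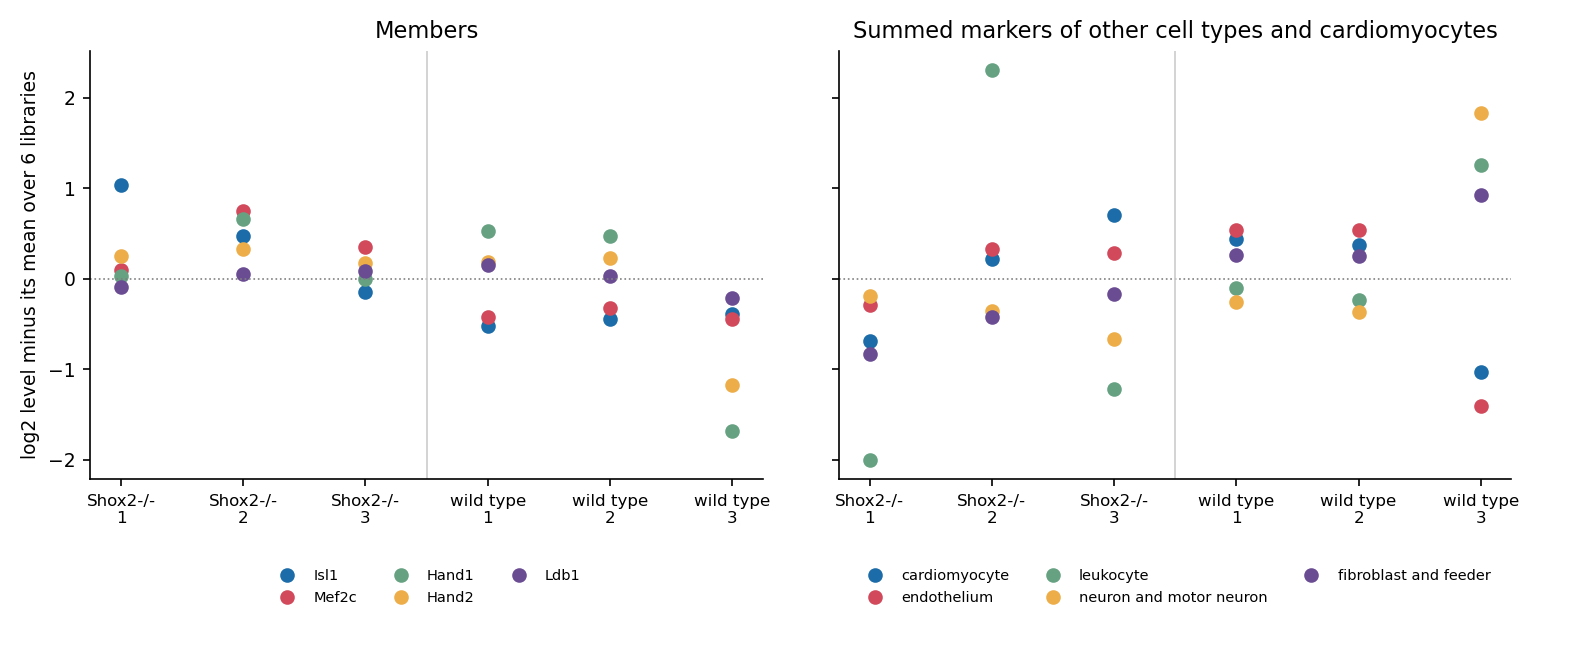
Log2 level minus its own mean over the 6 libraries (y axis) in the 3 libraries labelled Shox2-/- (left of the line) and the 3 labelled wild type, for the members (left panel) and for summed marker lists (right panel). In library 3 labelled wild type Hand1, Hand2 and the cardiomyocyte and endothelial sums are each at their lowest, and in library 2 labelled Shox2-/- leukocyte markers and Mef2c are each at their highest.

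Hand2os1, a long noncoding RNA on the opposite strand (chromosome 8, 57281117 to 57324233) known in mouse as a regulator of the locus, shares 461 exonic bases with Hand2 and was matched by gene ID. It had 1154, 1583 and 1658 normalized counts in libraries 1, 2 and 3 labelled knockout and 1456, 1464 and 1286 in libraries 1, 2 and 3 labelled wild type. Library 3 labelled wild type was the lowest of its group by a small margin, and library 1 labelled knockout was the lowest of all. Its log2 difference of 0.05 (SE 0.16) changed sign under scaling by upper quartiles. Without stated strand, reads in the shared bases cannot be split between the pair. Fbxo8, an F-box gene at 727 kb and the nearest coding gene on the lower side, was the only tested neighbour with the whole knockout label below, at 816 ± 60.6 (SD, n = 3) in libraries labelled knockout and 1087 ± 257 (SD, n = 3) in those labelled wild type. Leaving out Itga1, the 8 tested nearest coding neighbours of the 5 members had log2 differences between -0.39 and 0.21, and 0 had an unadjusted p under 0.05. Cetn3, a centrin gene next to Mef2c at 1707 kb, did not overlap either, at 2215 ± 177 (SD, n = 3) in libraries labelled knockout and 1906 ± 109 (SD, n = 3) in those labelled wild type.

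The Hand2 start window is shown as the only window of a HAND gene in the table (GRCm38.p6, chr8:57320733-57321032, plus strand, 5′ to 3′, TAAT on either strand in capitals).
Hand2 window: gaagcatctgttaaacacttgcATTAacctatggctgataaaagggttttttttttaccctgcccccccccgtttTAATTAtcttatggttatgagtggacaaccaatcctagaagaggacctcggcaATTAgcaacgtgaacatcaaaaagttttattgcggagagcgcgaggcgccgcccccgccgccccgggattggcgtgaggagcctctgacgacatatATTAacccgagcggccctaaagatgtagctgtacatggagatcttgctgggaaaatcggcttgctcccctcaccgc
It holds 5 matches to TAAT, 2 E-boxes and 2 matches to GATAA.

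The HAND partner list holds dimer partners and relatives of the HAND factors and also other genes, such as Fhl2, Zfpm2 and Ppp2r5d. All its genes were tested, 16 of 16, although Tcf15 stayed at 16.5 or less. Of these 10 were higher and 6 lower in libraries labelled knockout, with a median of 0.16 and 0 past the adjusted threshold in limma. At an unadjusted p under 0.05, 3 were higher and 1 lower, 25% of those tested, beside 14.2% of all genes. Twist1, a helix-loop-helix factor that competes with HAND proteins for partners, had 4443, 1711 and 1734 normalized counts in libraries 1, 2 and 3 labelled knockout and 1256, 1332 and 1008 in those labelled wild type. Library 1 labelled knockout stood far above the rest. Its log2 difference was 0.99 (SE 0.36), and 0.53 without that library. Without library 3 labelled wild type its unadjusted p in limma was 0.0817. Hey2, a Notch target and repressor in heart, had 725, 323 and 224 in libraries labelled knockout and 202, 200.1 and 132 in those labelled wild type, again highest in library 1 labelled knockout (log2 difference 1.09, SE 0.42; without it 0.62, unadjusted p = 0.0678 in limma). Its relative Hey1 ran the other way, at 240.1 ± 15.2 (SD, n = 3) in libraries labelled knockout and 329.9 ± 34.6 (SD, n = 3) in those labelled wild type. Tcf3, which encodes E proteins that pair with HAND factors, had a log2 difference of 0.38 (SE 0.16), with an unadjusted p under 0.05 in 9 of 15 alternatives.

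Of 36 other genes in the second heart field list, 31 were tested and 0 passed the adjusted threshold in limma. At an unadjusted p under 0.05, 9 were higher and 4 lower, 41.9% of those tested, beside 14.2% of all genes. The share is a description of a chosen list, which also holds genes not particular to the field. Among these are Hcn4, Tbx3 and Tbx18, also listed as sinoatrial node markers. The list median was 0.21. Foxh1, a Nodal pathway factor upstream of Mef2c in the anterior field, had 362, 317 and 264 normalized counts in libraries labelled knockout and 97.9, 115 and 157 in those labelled wild type (log2 difference 1.36, SE 0.23; adjusted p = 0.17 in limma). Fgf3, a growth factor of the field, had 102, 72.4 and 60.7 in libraries labelled knockout and 31.5, 24.1 and 28.3 in those labelled wild type (log2 difference 1.43, SE 0.28). Neither gene overlapped between groups.

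Smarcd3, a chromatin remodelling subunit of early heart cells, averaged 596 ± 65.9 (SD, n = 3) in libraries labelled knockout and 387 ± 44.8 (SD, n = 3) in those labelled wild type. Tbx18 and Nr2f2, factors of the inflow side, ran the other way, with log2 differences of -1.18 (SE 0.26) and -1.04 (SE 0.12). Tbx18 had 64, 96.5 and 57 in libraries labelled knockout and 193, 153 and 141 in those labelled wild type. Nr2f2 had 647, 787 and 778 in libraries labelled knockout and 1563, 1539 and 1430.4 in those labelled wild type. Neither of them overlapped between groups, and the adjusted p of Nr2f2, 0.0954 in limma, was the lowest of the list. Under limma voom, where 303 genes passed, Nr2f2, Foxh1 and Fgf3 passed at an adjusted p of 0.00642, 0.0106 and 0.0368. Without library 2 labelled knockout, where 51 genes passed, Nr2f2 passed at 0.0469 in limma. With libraries 1 and 2 labelled wild type averaged, the adjusted p of each of these genes was 0.505 in limma. Among the genes of the list that stayed under the filter were Tbx1, Mesp1 and Fgf8, with highest values of 2.61, 8.89 and 14.1. Fgf10, a growth factor gene that Isl1 is known to activate in mouse and chosen after its values were seen, had 202, 420.1 and 207 in libraries labelled knockout and 294, 366 and 239 in those labelled wild type. Myocd, a coactivator gene of cardiac and smooth muscle chosen in the same way, had 317, 794 and 536 in libraries labelled knockout and 499.6, 493 and 288 in those labelled wild type. The groups overlapped for both.

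**Figure D4:**
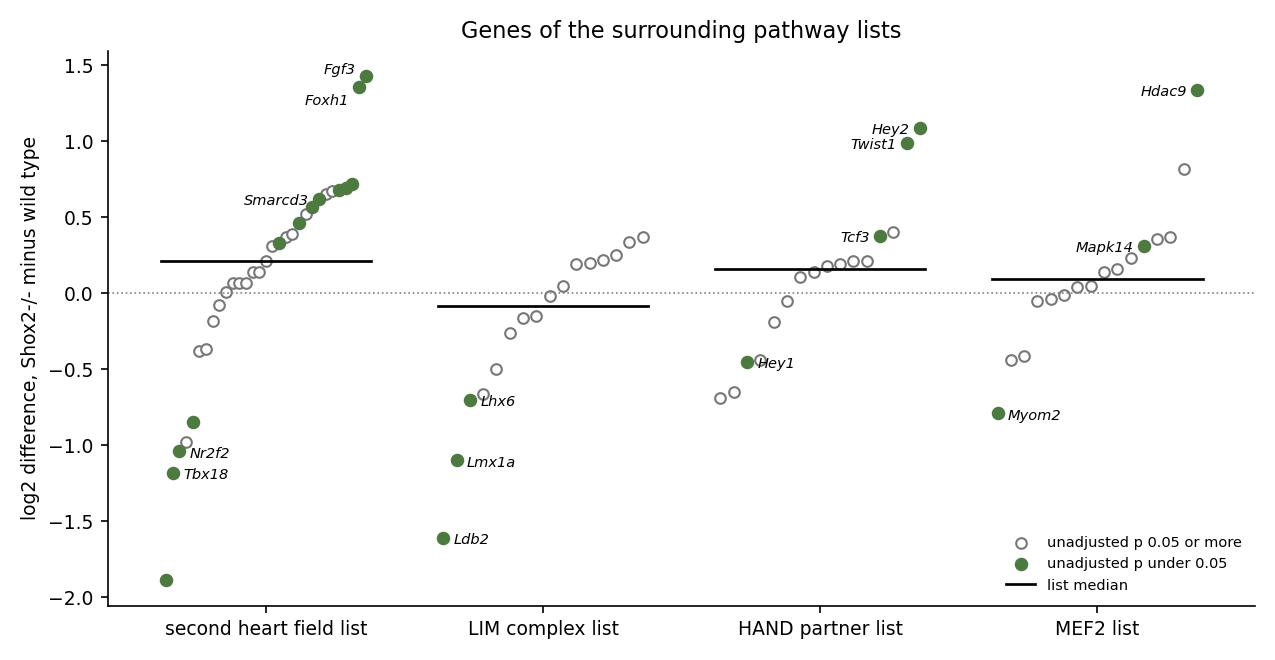
Log2 difference of labelled Shox2-/- minus labelled wild type (y axis) for each tested gene of the 4 lists (x axis, ordered within a list), with genes at an unadjusted p under 0.05 filled and the list median as a line. Fgf3 and Foxh1 are the highest of the second heart field list at 1.43 and 1.36, and Ldb2 the lowest of the LIM complex list at -1.61.

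Levels were compared between members only per length. Over the union of annotated exons, the level in libraries labelled knockout was 969 ± 52.2 normalized counts per kilobase for Hand2, 784 ± 49.7 for Ldb1, 386 ± 106 for Hand1, 242 ± 95.8 for Isl1 and 205 ± 47.0 for Mef2c (SD, n = 3). In libraries labelled wild type it was 773 ± 96.8 for Ldb1, 744 ± 333 for Hand2, 337 ± 205 for Hand1, 123 ± 5.79 for Isl1 and 116 ± 5.46 for Mef2c (SD, n = 3). Among libraries labelled knockout, Hand2, Ldb1 and Hand1 did not overlap each other, while Hand1, Isl1 and Mef2c overlapped as neighbours in the order. Among libraries labelled wild type, every pair of neighbours in the order overlapped. The order depends on the length used. With the median length of coding transcripts, 3.52 kb for Mef2c against 15.72 kb for its exon union, Mef2c came to 914 normalized counts per kilobase in libraries labelled knockout and 517 in those labelled wild type, above Isl1 at 517 and 261. By that length Ldb1 came to 1721 in libraries labelled knockout and 1696 in those labelled wild type, above Hand2 at 969 and 744 in both.

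**Figure D5:**
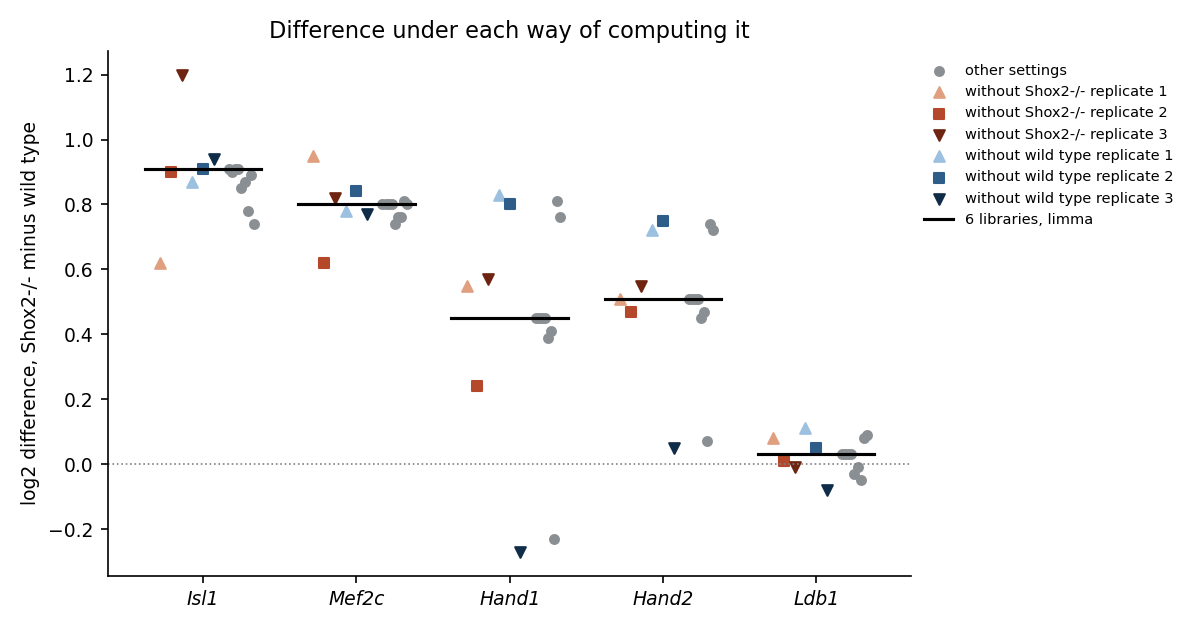
Log2 difference of labelled Shox2-/- minus labelled wild type (y axis) for each member under limma on 6 libraries (line), with each library left out in turn (coloured symbols) and under other settings (grey). Isl1 and Mef2c stay between 0.62 and 1.20, whereas Hand1 and Hand2 are at -0.27 and 0.05 without library 3 labelled wild type.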

How the data were processed

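RNA from 6 samples was sequenced. The submitters' processing notes name build mm10 and, without saying what each did, DESeq2 1.14.0, HTSeq, BWA and CASAVA 1.8.2. The deposited values are gene-level read counts that the authors divided by 1 size factor per library. This was worked out from the values, which were whole multiples of a step in 100% of cases within 0.1 reads.

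Values were analysed as log2(value + 1) with limma 3.58.1 in R 4.3.3 (genotype as the 1 term, variance trend on, two-sided; Benjamini-Hochberg over 17034 genes with at least 10 in at least 3 libraries). A fold change on this scale understates that of low genes. Positions and lengths came from GENCODE M21, in which 30484 of 30631 gene IDs were found, and start windows from RefSeq, which matched 4 of 5 members.

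The members and lists were chosen with earlier results of these data known. Named genes were the members, up to 5 per list by lowest p under 0.05, paralogs, neighbours, the 3 genes most like each member, Shox2 and Alcam; some genes are not reported here. Alcam, which encodes CD166, averaged 4598 ± 622 in libraries labelled knockout and 6319 ± 415 in those labelled wild type (SD, n = 3).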

Additional observations from a re-analysis of the deposited data

How the results depend on the processing

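No paired analysis was possible because the titles give no replicate numbers, so only a block for titles with Diff9 was fitted. With that block the log2 differences were 0.74 for Isl1, 0.80 for Mef2c, 0.76 for Hand1, 0.72 for Hand2 and 0.09 for Ldb1, and 0 of 5 were called. Leaving out libraries in turn gave -0.27 to 0.83 for Hand1, -0.08 to 0.11 for Ldb1 and -0.32 to 0.11 for the log2 ratio of Hand1 to Hand2, which was 0.08 with libraries 1 and 2 labelled wild type averaged. Ldb1 was at -0.03 under upper quartile scaling, -0.01 under library totals and -0.05 under voom with quality weights, where Hand1 was at -0.23 and Mef2c at 0.76, called. The count of genes called was 303 under voom, 2 without the filter and 0 to 51 with libraries left out. The highest of these was without library 2 labelled knockout. Genes at an unadjusted p under 0.05 numbered 3809 under voom, 1585 with the 2 libraries averaged and 1487 to 2721 with libraries left out. Among other genes, leaving out libraries gave -0.48 to 0.15 for Isl2, -0.10 to 0.02 for Mef2a, -0.20 to 0.12 for Mef2d, -0.01 to 0.65 for Myocd, -0.05 to 0.21 for Hand2os1 and -0.14 to 0.14 for Pprc1. Mef2d was at 0.08 with the averaged libraries and 0.10 with the block. Upper quartile scaling gave -0.01 for Hand2os1 and -0.05 for Pprc1, library totals -0.03 and voom -0.08 for Pprc1. The cause of these shifts was not tested. The voom fit used reads recovered from the values. The edgeR, DESeq2 and TMM alternatives, which could have used them too, were not run.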
